A study of Homo sapiens with 6 samples.

Results

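Aminoacyl-tRNA synthetases are the enzymes that attach each amino acid to its transfer RNA (tRNA) before translation. The set described here comprised 36 of the 32679 genes in the deposited table, chosen by gene name: 20 genes for cytosolic enzymes and 16 for mitochondrial enzymes, the latter with names ending in 2. The first letter of a name is the one-letter code of the amino acid, as in AARS for alanine. EPRS is a fused enzyme for glutamate and proline, FARSA and FARSB are the subunits of 1 phenylalanine enzyme, and GARS and KARS are known to serve both compartments. The table keeps the older symbols without a final 1. All 36 genes were found, and all had a mean FPKM (sequenced fragments divided by transcript length and by the size of the library) of at least 1, the minimum for testing.

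The values come from short-read RNA-seq of HEY cells, a human ovarian cancer cell line. The 3 shNC samples carry a control hairpin and were labelled as untreated. The 3 shPQBP1 samples carry a hairpin against the splicing factor PQBP1 and received doxycycline at 1 µg/ml. All 6 were labelled day 3, and the series describes biological triplicates of a doxycycline-inducible knockdown. By these labels the hairpin and doxycycline differ together, so their parts cannot be told apart. Per the study's methods, lines made with lentivirus were stable populations selected with puromycin, and RNA for the libraries was purified by its poly(A) tail, so that the tRNAs themselves were not measured. In bulk RNA, fewer cells of a kind and less RNA per cell cannot be told apart.

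By background knowledge, synthetases fall into class I and class II by the fold of their catalytic domain, and several cytosolic enzymes are held with the scaffold proteins AIMP1, AIMP2 and EEF1E1 in the multisynthetase complex. When amino acids run short, uncharged tRNA activates the kinase GCN2 (EIF2AK4), translation of the transcription factor ATF4 increases, and ATF4 raises transcription of many cytosolic synthetase genes through the C/EBP-ATF response element. Mitochondrial enzymes are encoded in the nucleus, imported, and charge the tRNAs made from mitochondrial DNA.

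The promoter sequences are given first. In the RefSeq promoter windows (GRCh38.p14, 250 bases before to 50 after each gene's start, 300 bases in all), TGATGNAA, the core of the C/EBP-ATF response element, was searched on both strands. Windows were given for 30 of the 36 genes. The core was in 7 of the 16 cytosolic windows (43.8%), in 1 of the 14 mitochondrial windows (7.14%) and in 1217 of the 27305 windows of all genes (4.46%). All 7 cytosolic genes with the core are on the list of 12 synthetases known as ATF4 targets, of which 10 had a window (70%). The windows of DARS, LARS, VARS, YARS, AARS2 and VARS2 were not used here. The 8 matches are shown as 30 bases of the gene's own strand, 5′ to 3′, with the core in capitals. TTGCATCA and TTTCATCA are the core read on the opposite strand.
AARS, chr16:70289675-70289704, minus strand: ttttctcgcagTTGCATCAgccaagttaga
CARS, chr11:3057407-3057436, minus strand: cggggcggcggTTGCATCAgattctaggaa
GARS, chr7:30594834-30594863, plus strand: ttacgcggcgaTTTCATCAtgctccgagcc
IARS, chr9:92293692-92293721, minus strand: ttttcagcgcgTTGCATCAcctccgtgcgc
MARS, chr12:57488053-57488082, plus strand: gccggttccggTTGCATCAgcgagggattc
NARS, chr18:57621804-57621833, minus strand: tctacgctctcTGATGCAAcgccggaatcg
TARS, chr5:33440956-33440985, plus strand: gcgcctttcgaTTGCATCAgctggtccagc
YARS2, chr12:32756076-32756105, minus strand: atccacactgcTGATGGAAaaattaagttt
Of the 7 cytosolic matches, 6 shared the same 8 letters or their reverse complement, and GARS differed in 1 letter. Counted from the RefSeq start at 0, the core began between positions -33 and 14 in the cytosolic genes other than AARS, where it began at -187, and at -197 in YARS2. These positions depend on the annotation: in GENCODE release 44, AARS starts at 70289707 on the minus strand, so that its match lies just inside the gene. A match describes these letters in this window and is not evidence of binding.

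PQBP1 itself was at 7.18, 6.67 and 6.93 FPKM in the shNC samples and at 1.68, 1.72 and 1.44 in the shPQBP1 samples. This is a log2 fold change of -2.04 (SE 0.10, adjusted p = 0.00154 in limma with Benjamini-Hochberg adjustment). The exact permutation test of the 6 values gave p = 0.1, the smallest that 3 against 3 allows. KRT8, KRT18 and VIM were high in all 6 samples and PAX8 lay between 12.33 and 24.08 FPKM, while CDH1 and MUC16, an epithelial and an ovarian carcinoma marker, were at 0.06 FPKM or less. Of the other ovarian carcinoma markers, MSLN lay between 11.96 and 25.56 FPKM and WT1 between 0.31 and 0.71. The epithelial markers EPCAM and KRT19 were low, at 0.79 to 1.13 and 1.19 to 2.1 FPKM. PTPRC, the pan-leukocyte marker, was at 0 in all 6 samples, and the endothelial and fibroblast markers did not exceed 0.47. FPKM sums over all genes were 318484.3, 294970.3 and 304196.4 in shNC and 282733.6, 287422.6 and 278285.8 in shPQBP1. They were thus lower in every shPQBP1 sample, and the depth of the samples is unknown. The sample shNC replicate 1 stood apart: its FPKM-weighted mean GC content was 47.362%, against 46.744% to 47.077% in the other 5. Values without it are therefore given below for many genes. These are mainly those where leaving it out turned a direction, changed an adjusted call or moved a log2 fold change by over 1.5 times. Calls at an unadjusted p under 0.05 used all 6 samples unless stated, and some of them change without it.

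The cytosolic genes were expressed at higher levels than the mitochondrial ones. On the FPKM scale, which is per length, the mean over the 6 samples ran from 9.59 (CARS) to 72.6 (TARS) in the cytosolic set, with a median of 24.0 over its genes. In the mitochondrial set it ran from 1.89 (PARS2) to 29.0 (IARS2), with a median of 3.95. IARS2, YARS2 (17.6) and RARS2 (12.5) were the only mitochondrial genes above 10 FPKM. TARS, GARS, SARS, IARS and AARS, for threonine, glycine, serine, isoleucine and alanine, each exceeded 50 FPKM on average. Neighbours in this order were close: TARS was at 58.50 to 77.80 FPKM and GARS at 62.18 to 75.12, so that their ranges overlapped. The same held at the low end for HARS (9.84 to 11.91) and CARS (8.70 to 11).

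**Figure D1:**
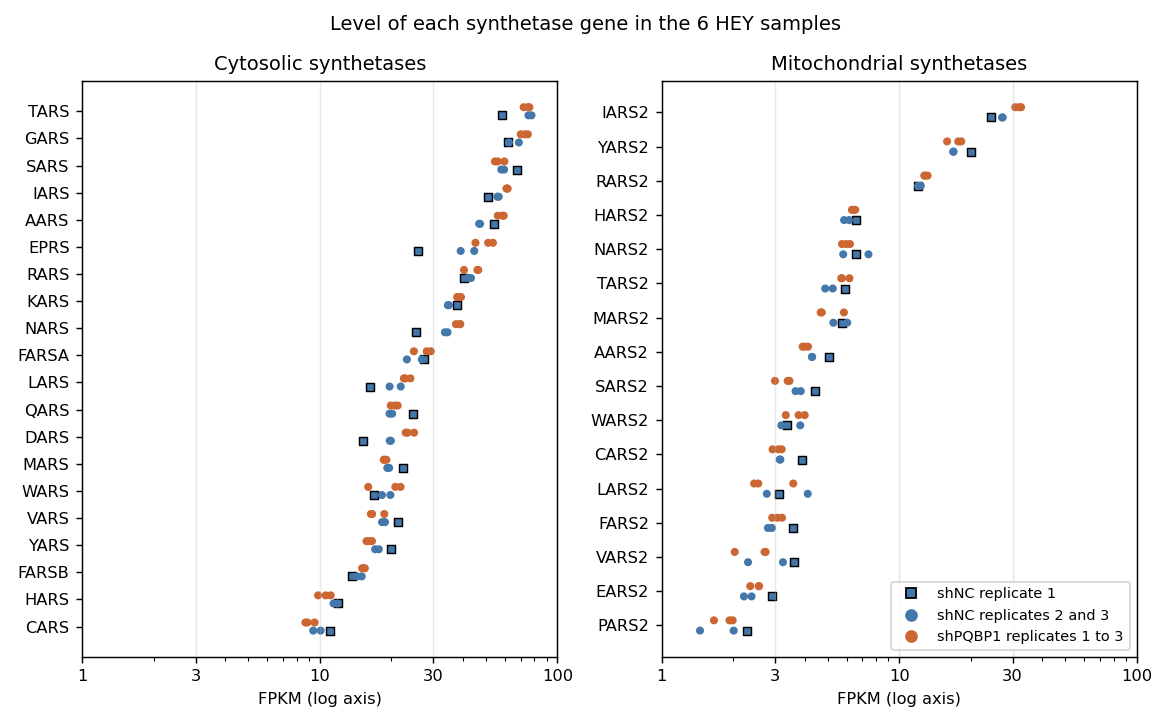
FPKM of each cytosolic (left) and mitochondrial (right) synthetase gene on a log axis, 1 point per sample, with genes ordered by their mean. Blue points are shNC samples, with replicate 1 as a black-edged square, and orange points are shPQBP1 samples. Cytosolic means run from 9.59 to 72.6 FPKM and mitochondrial means from 1.89 to 29.0.

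The question for these genes was whether PQBP1 knockdown changed them, and whether the cytosolic and the mitochondrial sets differed. No synthetase gene passed an adjusted p under 0.05 in either direction, while 197 of the 11413 genes tested were higher (1.73%) and 135 were lower (1.18%). The lowest adjusted p was 0.110, for IARS2, and the lowest in the cytosolic set was 0.137, for DARS (limma, Benjamini-Hochberg adjustment). At an unadjusted p under 0.05, 4 of 20 cytosolic genes were higher (AARS, DARS, IARS and NARS), 1 of 16 mitochondrial genes was higher (IARS2), and none was lower. Of all genes tested, 11.9% were higher and 11.7% lower by that count. Without shNC replicate 1, KARS (limma unadjusted p = 0.0313) and TARS2 (limma unadjusted p = 0.0410) were also higher at an unadjusted p under 0.05. That made 5 of 20 cytosolic and 2 of 16 mitochondrial genes, beside 1553 of 11436 genes higher and 1281 lower in that fit. No member changed more than 2-fold, whereas 1.52% of all genes changed by more than 2-fold at that unadjusted p.

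A larger share of the cytosolic set was separated by sample. In 8 of 20 cytosolic genes (AARS, DARS, EPRS, FARSB, GARS, IARS, LARS and NARS) every shPQBP1 sample was above every shNC sample, beside 17.3% of all genes tested. In 3 of 20 (HARS, MARS and YARS) every shPQBP1 sample was below, beside 17.1% of all genes. Of the 16 mitochondrial genes, IARS2 and RARS2 were separated upward and AARS2 and SARS2 downward, and the groups overlapped in 12. The median log2 fold change was 0.087 for the cytosolic genes (13 above 0 and 7 below) and -0.036 for the mitochondrial genes (6 above and 10 below), a difference of 0.123, with 0.021 for all genes tested. Without shNC replicate 1 the medians were 0.057 and 0.053 and their difference was 0.004, so that the gap between the medians depended on that sample. The mean of log2(FPKM + 0.1) over cytosolic genes exceeded that over mitochondrial genes by 2.258, 2.45 and 2.473 in shNC. In shPQBP1 this excess was 2.59, 2.493 and 2.488. The lowest of these was just above the highest control, and this separation was not tested.

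**Figure D2:**
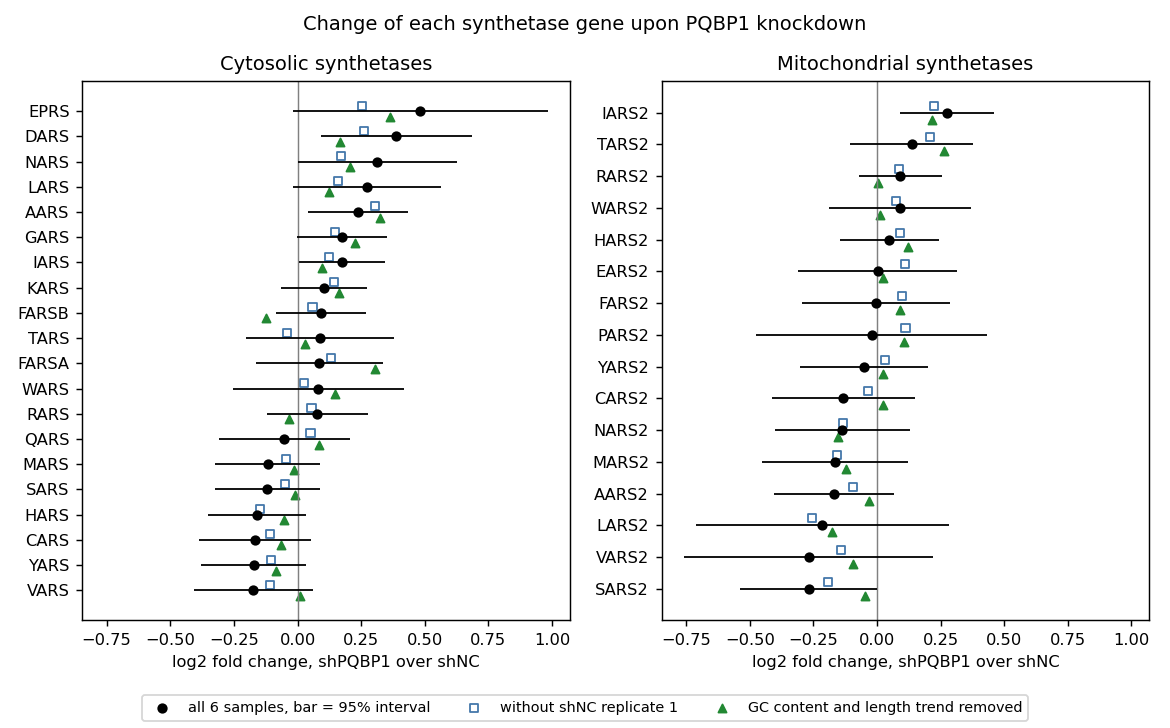
log2 fold change of log2(FPKM + 0.1), shPQBP1 over shNC, for each cytosolic (left) and mitochondrial (right) synthetase gene. Black points are estimates from all 6 samples with bars for the 95% interval from limma, blue squares leave out shNC replicate 1, and green triangles follow removal of the trend on GC content and length. No member had an adjusted p under 0.05 with all 6 samples, and EPRS lay farthest from 0, at 0.48, with 0.25 without shNC replicate 1.

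Among the cytosolic genes, EPRS (ENSG00000136628, chr1:219968600-220046530) had the highest estimate. Its FPKM was 25.90, 44.67 and 39.18 in the shNC samples and 53.55, 45.22 and 51.12 in the shPQBP1 samples. The groups did not overlap, and shNC replicate 1 was far below the other 5 samples. The log2 fold change was 0.48 (SE 0.21, 95% interval -0.02 to 0.98, adjusted p = 0.223 in limma) and 0.25 without that sample. DARS, the aspartate enzyme (ENSG00000115866, chr2:135905881-135986100), was at 15.21, 19.92 and 19.70 FPKM in shNC and at 24.94, 22.99 and 23.44 in shPQBP1. Here too shNC replicate 1 was the lowest of the 6, and the log2 fold change of 0.39 (SE 0.12, limma adjusted p = 0.137) became 0.26 without it.

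NARS, which charges asparagine tRNA, gave 25.37, 34.49 and 33.63 FPKM in shNC against 39.04, 37.42 and 38.73 in shPQBP1. The shPQBP1 samples lay close together, whereas shNC replicate 1 was again apart from its group. The log2 fold change was 0.31 (SE 0.13, limma adjusted p = 0.212), and 0.17 without that sample. LARS, for leucine, showed the same order, with 16.31, 21.92 and 19.67 FPKM in shNC and 22.90, 22.59 and 24.07 in shPQBP1, and 0.27 (limma adjusted p = 0.228) became 0.16. LARS, IARS, AARS and TARS were added to the genes described in full after their values were seen.

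AARS (ENSG00000090861, chr16:70251983-70289707) behaved differently toward the control that stood apart. It was at 53.86, 47.28 and 46.85 FPKM in shNC and at 56.12, 58.71 and 59.46 in shPQBP1. The groups did not overlap, and shNC replicate 1 was the control nearest to the knockdown samples. The log2 fold change was 0.24 (SE 0.08, limma adjusted p = 0.154) with all samples and 0.30 without shNC replicate 1 (limma adjusted p = 0.0482). AARS was the only 1 of the 36 members that passed the threshold under any alternative, in 3 of 16, with limma adjusted p between 0.0170 and 0.366 over all of them. Those 3 fits also called more of all genes than the 2.91% with all 6 samples as reported. They called 4.07% without shNC replicate 1, 7.79% with the GC and length correction, and 6.16% with that correction without shNC replicate 1. IARS, for isoleucine, was at 50.81, 56.67 and 55.92 FPKM in shNC and at 61.49, 61.75 and 61.01 in shPQBP1, a log2 fold change of 0.17 (SE 0.07, limma adjusted p = 0.205).

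GARS and KARS, whose products work in the cytosol and in mitochondria, had small positive estimates. GARS was at 62.18, 62.52 and 68.86 FPKM in shNC and at 70.14, 75.12 and 73.09 in shPQBP1, with no overlap and a log2 fold change of 0.17 (SE 0.07, limma adjusted p = 0.213). KARS was at 37.86, 34.60 and 34.94 FPKM in shNC and at 38.25, 37.85 and 39.29 in shPQBP1, with 1 knockdown sample just under the highest control, and a log2 fold change of 0.10 (limma adjusted p = 0.380). TARS, the gene with the highest level, shows how much 1 control weighs. It was at 58.50, 77.80 and 75.56 FPKM in shNC and at 76.22, 72.12 and 75.28 in shPQBP1, and its log2 fold change of 0.09 turned to -0.04 without shNC replicate 1.

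The lowest cytosolic estimates belonged to VARS, YARS and CARS, for valine, tyrosine and cysteine. YARS was at 19.98, 17.10 and 17.72 FPKM in shNC and at 15.73, 16.58 and 16.20 in shPQBP1, without overlap, a log2 fold change of -0.17 (SE 0.09, limma adjusted p = 0.271) that was -0.11 without shNC replicate 1. VARS was at 21.29, 18.81 and 18.29 FPKM against 16.41, 18.69 and 16.61, and CARS at 11, 9.38 and 10.08 against 9.51, 8.87 and 8.70. In both of these 1 or more samples overlapped, the log2 fold change was -0.17, and shNC replicate 1 was the highest of the 6. Without that sample the log2 fold change was -0.11 in both. HARS, for histidine, and MARS, for methionine, were separated downward with log2 fold changes of -0.16 and -0.12 (limma adjusted p = 0.272 and 0.418), and MARS was at -0.046 without shNC replicate 1. The remaining cytosolic genes (FARSA, FARSB, QARS, RARS, SARS and WARS) lay between -0.12 and 0.09. Without shNC replicate 1 they lay between -0.051 and 0.13, and QARS, for glutamine, turned from -0.05 to 0.05.

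Among the mitochondrial genes, IARS2 (ENSG00000067704, chr1:220094132-220148041) had the highest estimate and the highest level. It was at 24.44, 27.08 and 27.25 FPKM in shNC and at 32.56, 30.77 and 31.98 in shPQBP1. Every knockdown sample was above every control, and the log2 fold change was 0.28 (SE 0.08, 95% interval 0.09 to 0.46, unadjusted p = 0.0103, limma adjusted p = 0.110). It was 0.23 without shNC replicate 1, and its limma adjusted p ranged from 0.0704 to 0.310 over 16 alternatives. RARS2, for arginine, was at 12.02, 12.32 and 12.00 FPKM in shNC and at 13.16, 12.85 and 12.74 in shPQBP1, a separation without overlap at a log2 fold change of 0.09 (limma adjusted p = 0.418). TARS2 was at 5.91, 5.25 and 4.88 FPKM in shNC and at 5.74, 5.70 and 6.17 in shPQBP1, and its groups overlapped (log2 fold change 0.14, limma adjusted p = 0.417, and 0.21 without shNC replicate 1).

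SARS2, the mitochondrial serine enzyme, had the lowest estimate. It was at 4.42, 3.66 and 3.85 FPKM in shNC and at 3.00, 3.45 and 3.39 in shPQBP1. The groups did not overlap, and the log2 fold change was -0.27 (SE 0.11, 95% interval -0.54 to 0.001, limma adjusted p = 0.213). VARS2 and LARS2 varied more within groups. VARS2 was at 3.59, 2.31 and 3.24 FPKM in shNC and at 2.03, 2.71 and 2.74 in shPQBP1 (log2 fold change -0.27, SE 0.20, limma adjusted p = 0.431), and LARS2 was at 3.11, 2.77 and 4.12 against 2.45, 2.55 and 3.58 (-0.22, SE 0.20, limma adjusted p = 0.533). The groups overlapped in both, and VARS2 was at -0.14 without shNC replicate 1. AARS2, the partner of AARS, was at 5.04, 4.30 and 4.29 FPKM in shNC and at 3.92, 4.13 and 4 in shPQBP1, separated downward at -0.17 (limma adjusted p = 0.320), or -0.095 without shNC replicate 1. The other 9 mitochondrial genes (CARS2, EARS2, FARS2, HARS2, MARS2, NARS2, PARS2, WARS2 and YARS2) lay between -0.17 and 0.09, and their groups overlapped. Of these, FARS2, PARS2 and YARS2 turned from below to above 0 without shNC replicate 1, at 0.099, 0.11 and 0.030.

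GC content of the transcript moved with these differences. Over all 36 members, Spearman's rank correlation between the log2 fold change and the GC content of the canonical transcript was -0.650, with -0.620 in the 20 cytosolic and -0.594 in the 16 mitochondrial genes, and -0.459 in all genes with a transcript. These correlations are across genes that share the same 6 libraries and are descriptions. DARS, with the lowest GC content (38.1%), had a log2 fold change of 0.39, and VARS, with the highest (61.7%), had -0.17. Of the 8 cytosolic genes separated upward, 7 had a GC content of 47.1% or less, with AARS (53.3%) the exception, and the 3 separated downward lay between 51.3% and 53.2%. In shNC replicate 1, the deviation of a member from the mean of the other controls was larger at higher GC content (rank correlation 0.774). The same held over all genes (0.613), so this was not particular to the synthetases. This sample was the lowest of the 6 for 9 members and the highest for 16, and the shares over all genes are not given here. Without this sample, the rank correlation between the log2 fold change and GC content was -0.405 over the members and -0.235 over all genes.

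After each sample was corrected for its trend with GC content and length, the rank correlation over the members was -0.111. The medians were then 0.092 for the cytosolic and 0.018 for the mitochondrial genes, beside 0.030 for all genes. AARS rose in this fit (log2 fold change 0.32, SE 0.05, limma adjusted p = 0.0170) and was the 1 member called, while 7.79% of all genes were called. At an unadjusted p under 0.05, 6 of 20 cytosolic and 2 of 16 mitochondrial genes were higher and none was lower, beside 15.2% of all genes higher and 11.7% lower in this fit. FARSA, the GC-rich alpha subunit of the phenylalanine enzyme (61.3%), moved from 0.09 to 0.30, and FARSB, the beta subunit (40.0%), from 0.09 to -0.12. VARS moved from -0.17 to 0.008, and IARS2 from 0.28 to 0.22 (limma adjusted p = 0.0704). How much of each member's difference came from GC content in library preparation was not tested.

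**Figure D3:**
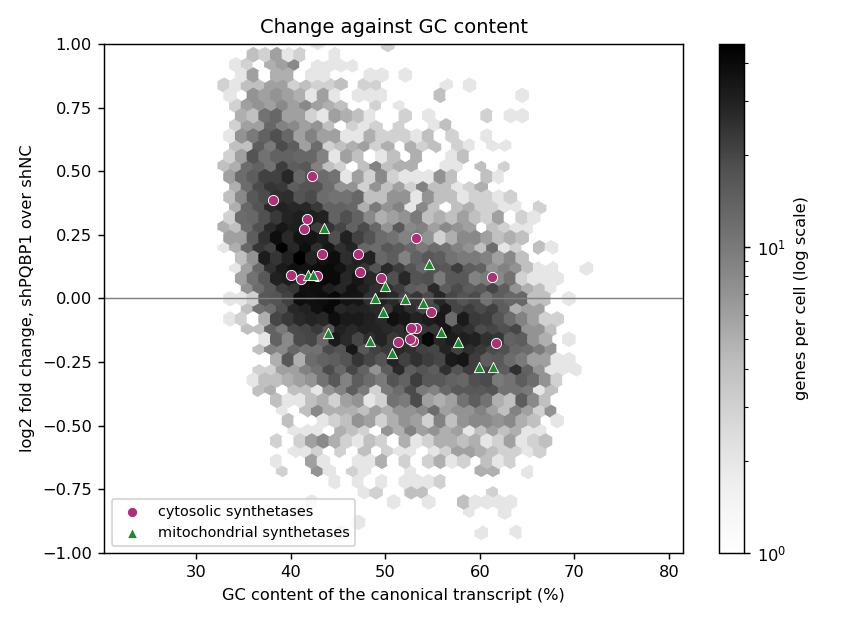
log2 fold change, shPQBP1 over shNC, against the GC content of the canonical transcript in percent. Grey cells count all tested genes on a log scale within log2 fold changes of -1 to 1, circles are cytosolic and triangles mitochondrial synthetase genes. The rank correlation was -0.650 over the 36 members and -0.459 over all genes, and AARS lies above the trend at 53.3%.

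By structural class, the 10 cytosolic class II genes (AARS, DARS, FARSA, FARSB, GARS, HARS, KARS, NARS, SARS and TARS) had a median log2 fold change of 0.099, with 8 above 0. The 10 class I genes (CARS, EPRS, IARS, LARS, MARS, QARS, RARS, VARS, WARS and YARS, with EPRS holding a domain of each class) had a median of 0.013, with 5 above 0. These medians were 0.139 and 0.039 without shNC replicate 1. After removal of the GC and length trend they were 0.164 for class II and 0.047 for class I. In that fit, all 6 cytosolic genes at an unadjusted p under 0.05 were class II, beside 15.2% of all genes higher. Several genes lay close to this cut-off. By limma unadjusted p, NARS of class II was at 0.0495, and EPRS and IARS of class I were at 0.0547 and 0.0571. The 8 members of the multisynthetase complex (DARS, EPRS, IARS, KARS, LARS, MARS, QARS and RARS) had a median of 0.139, with 4 of 8 separated upward and 1 downward, and the other 12 had 0.084, with 4 of 12 upward and 2 downward. Without shNC replicate 1 the medians were 0.135 and -0.007, and after removal of the GC and length trend they were 0.111 and 0.018. The median GC content of the complex members was 42.8%, against 52.0% in the other 12. The 12 synthetases known as ATF4 targets (AARS, CARS, EPRS, GARS, IARS, LARS, MARS, NARS, SARS, TARS, WARS and YARS) had a median of 0.132, with 6 of 12 separated upward and 2 downward, and the 8 cytosolic genes outside that list had 0.082, with 2 of 8 upward and 1 downward. All of these counts stand beside the 17.3% of all genes separated upward and the 17.1% separated downward. Without shNC replicate 1 the medians of the ATF4 targets and the other 8 were 0.076 and 0.057, and after removal of the GC and length trend 0.111 and 0.047. None of these groups held a gene at an adjusted p under 0.05 with all 6 samples.

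The 7 cytosolic genes whose promoter windows held the core printed above had a median log2 fold change of 0.175. AARS, GARS, IARS and NARS were separated upward, MARS downward, and CARS and TARS overlapped. The 9 cytosolic genes with a window and no core had a median of 0.081, with 2 separated upward and 1 downward. The counts of both groups stand beside 17.3% of all genes tested separated upward and 17.1% downward, and the groups are small. These medians were 0.125 and 0.055 without shNC replicate 1, and after removal of the GC and length trend they were 0.098 and 0.086. YARS2, the mitochondrial gene with a match, was at 20.07, 16.87 and 16.92 FPKM in shNC and at 17.71, 18.24 and 15.90 in shPQBP1, with overlap and a log2 fold change of -0.05 (limma adjusted p = 0.770). The same letters were thus present in genes on both sides of 0.

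Ratios within a sample set each cytosolic gene against the mitochondrial gene for the same amino acid. Of 17 such pairs, the cytosolic gene was above the mitochondrial gene in all 6 samples in 16. The exception was YARS and YARS2, at 1.02-fold in shNC and 0.937-fold in shPQBP1, and the widest gap was EPRS over PARS2, at 18.0-fold and 25.5-fold. The log2 ratio of AARS to AARS2 was 3.39, 3.43 and 3.42 in shNC and 3.81, 3.80 and 3.86 in shPQBP1. That is 10.7-fold against 14.1-fold, a log2 difference of 0.41, with group SDs of 0.019 and 0.034 (n = 3). This ratio set shNC replicate 1 beside the other controls. The log2 difference was 0.40 without that sample. Of the 17 pairs, in which EPRS and FARS2 recur, 3 were separated upward and 2 downward. This is near or under the 17.3% and 17.1% of single genes, a measure unlike a ratio of 2 genes. No share over other gene pairs was computed.

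The other pairs separated upward were NARS over NARS2, at 1.93, 2.202 and 2.51 in shNC and 2.64, 2.63 and 2.73 in shPQBP1 on the log2 scale, and SARS over SARS2, at 3.90 to 3.95 against 3.97 to 4.27. The log2 fold changes of NARS and NARS2 were 0.31 and -0.14, and those of SARS and SARS2 were -0.12 and -0.27. Separated downward were HARS over HARS2, at 0.85, 0.94 and 0.95 against 0.58, 0.80 and 0.73, and IARS over IARS2, at 1.05, 1.06 and 1.03 against 0.92, 1.00 and 0.93. For isoleucine both genes had positive estimates, and that of IARS2 was the larger. The groups overlapped in the other 12 pairs, and the log2 differences over all 17 ran from -0.21 to 0.50. Without shNC replicate 1 the differences of EPRS over PARS2 and over EARS2 moved from 0.50 and 0.48 to 0.14 each, and that of NARS over NARS2 from 0.45 to 0.31.

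**Figure D4:**
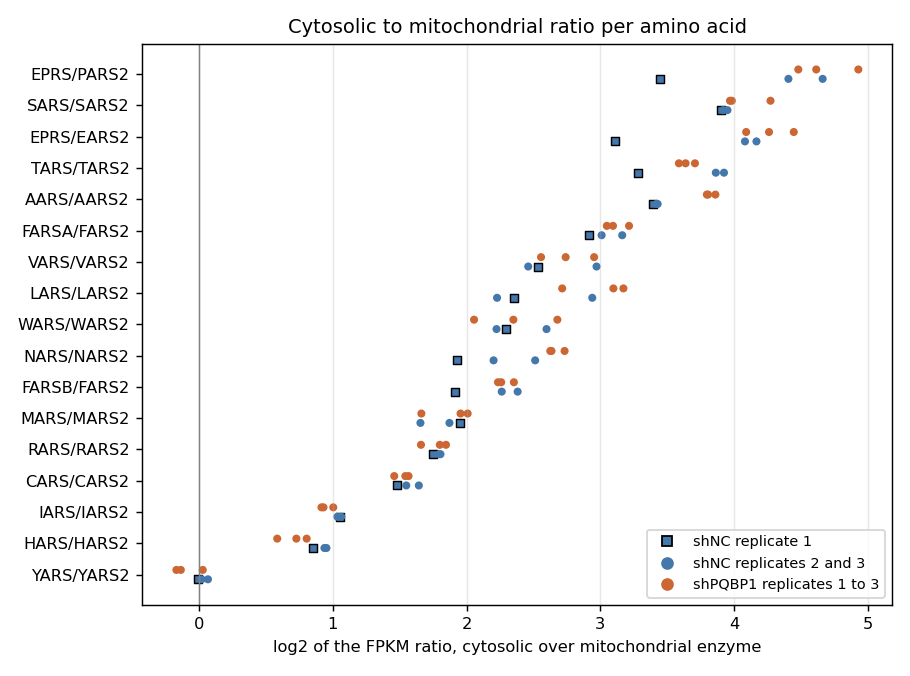
log2 of the FPKM ratio of the cytosolic over the mitochondrial gene for each of 17 pairs, 1 point per sample, with pairs ordered by their mean. Blue points are shNC samples, with replicate 1 as a black-edged square, and orange points are shPQBP1 samples. AARS/AARS2 separates by group, at 3.39 to 3.43 against 3.80 to 3.86, and YARS/YARS2 lies near 0.

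Summed over genes, cytosolic synthetase FPKM was 623.63, 654.34 and 653.67 in shNC and 701.11, 691.43 and 696.98 in shPQBP1. The mitochondrial sum was 113.52, 108.34 and 106.43 in shNC and 111.44, 112.81 and 112.19 in shPQBP1. The cytosolic sums did not overlap between groups, and the mitochondrial sums did. The ratio of the sums was 5.49, 6.04 and 6.14 in shNC and 6.29, 6.13 and 6.21 in shPQBP1, so that 1 control exceeded 1 knockdown sample. The sums weigh the genes of high level most. They were not rescaled for the FPKM sums over all genes, which were lower in every shPQBP1 sample than in every shNC sample.

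HARS and HARS2 are neighbours on chromosome 5 on opposite strands, with starts 107 bases apart and 108 shared bases in GENCODE release 44. HARS was at 11.91, 11.87 and 11.43 FPKM in shNC and at 9.84, 11.11 and 10.59 in shPQBP1, and HARS2 at 6.56, 6.15 and 5.86 against 6.53, 6.32 and 6.36. HARS was separated downward and HARS2 overlapped. In GENCODE, 11 members overlap another gene with a mean FPKM of at least 1, among them MARS with DDIT3 (982 shared bases), HARS2 with ZMAT2 (626, same strand) and KARS with TERF2IP (871). The sources used here do not say whether counting used strand, so that reads in these stretches may be split between genes, and values of these members are uncertain to that extent.

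The partners of the enzymes were taken from lists of 44 genes. Of the scaffold proteins of the multisynthetase complex, AIMP1 was at 11.09, 15.79 and 17.23 FPKM in shNC and at 20.35, 17.83 and 19.68 in shPQBP1 (log2 fold change 0.41, limma adjusted p = 0.218, and 0.22 without shNC replicate 1). AIMP2 was at 19.22, 17.10 and 16.85 FPKM against 15.84, 14.36 and 14.38 (-0.25, limma adjusted p = 0.164). AIMP1 was thus separated upward and AIMP2 downward, and EEF1E1 overlapped, at 10.43, 13.80 and 12.72 FPKM against 16.74, 13.67 and 22.72 (0.50, limma adjusted p = 0.211). That is 1 of 3 each way, beside 17.3% and 17.1% of all genes. By limma unadjusted p, EEF1E1 was higher at 0.0495 and AIMP2 lower at 0.0280, beside 11.9% and 11.7% of all genes, while AIMP1 was at 0.0535. Without shNC replicate 1, EEF1E1 was at 0.139, AIMP2 at 0.0390 and AIMP1 at 0.0451. The GC contents of AIMP1, AIMP2 and EEF1E1 were 35.2%, 51.2% and 36.4%. Of the genes for tRNA repair, export and quality control, 10 of 11 were tested and none passed an adjusted p under 0.05. At an unadjusted p under 0.05, TRNT1, which adds the CCA end of tRNA, and XPOT, the tRNA exportin, were higher and AARSD1, an alanyl-tRNA editing protein, was lower. That is 2 and 1 of 10, beside 11.9% and 11.7% of all genes. Of the 10 mitochondrial tRNA partners none passed the adjusted threshold. GATC, a subunit of the glutamyl-tRNA amidotransferase, and PTCD1 were lower at an unadjusted p under 0.05, and none was higher. That is 2 of 10 lower, beside 11.7% of all genes. Without shNC replicate 1, PTCD1 left this count (limma unadjusted p = 0.0582) and GATB entered it as higher (limma unadjusted p = 0.0251).

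The amino acid response list of 20 genes, which holds ATF4 and the kinase GCN2, had a median log2 fold change of 0, with 10 genes above and 10 below. Of these 20 genes, 1 passed the adjusted threshold, beside 1.73% of all genes higher and 1.18% lower. This gene was ATF3, a transcription factor induced by stress. ATF3 was at 5.79, 5.67 and 6.06 FPKM in shNC and fell to 4.38, 3.86 and 3.82 in shPQBP1 (log2 fold change -0.53, SE 0.09, limma adjusted p = 0.0384). Its limma adjusted p was 0.0504 to 0.167 with any 1 sample left out and 0.0697 after removal of the GC and length trend. ATF4 was at 209.02, 176.60 and 182.47 FPKM in shNC and at 158.36, 169.52 and 162.98 in shPQBP1, separated downward at -0.21 (limma adjusted p = 0.203), or -0.13 without shNC replicate 1. ATF4 is controlled mainly in translation, which these data do not measure. At an unadjusted p under 0.05, PSAT1, SLC7A11 and EIF2AK4 were higher and ATF3, ATF4 and SLC3A2 lower, 3 of 20 each way beside 11.9% and 11.7% of all genes. Without shNC replicate 1, EIF2AK4 and SLC3A2 left this count (limma unadjusted p = 0.0568 and 0.0899). ASNS and DDIT4 then entered it as higher (limma unadjusted p = 0.0124 and 0.00846). PSAT1, an enzyme of serine synthesis, had a log2 fold change of 0.32 (limma adjusted p = 0.0537), and its limma adjusted p was 0.0328 without shNC replicate 1. It was then the 1 gene of the list called, beside 4.07% of all genes. After removal of the GC and length trend the list had a median of 0.117, and 9 genes were higher and 1, ATF3, was lower at an unadjusted p under 0.05, beside 15.2% and 11.7% of all genes. In that fit DDIT4, an inhibitor of mTORC1 signalling, was the 1 gene of the 20 called, at 0.42 (limma adjusted p = 0.0190), beside 7.79% of all genes.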

How the data were processed

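The deposited FPKM values, rounded to 2 decimals, were made by the authors, who per the study's methods and the submitters' processing notes used HISAT2 2.2.0 for mapping to hg38, SAMtools 1.9 for sorting, StringTie 1.3.0 for transcripts and edgeR for their own group comparison. The annotation release is not given in the sources used here. The authors' fold change, p-value and q-value columns were not used. FPKM are not counts, and steps of whole reads were not resolved in the low, rounded values. The precision that depth gives is therefore unknown, and the spread over 3 samples per group stands for all error.

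The 11413 of 32679 genes whose mean FPKM reached 1 were compared on log2(FPKM + 0.1) with limma 3.58.1 in R 4.3.3 (lmFit, eBayes with trend, two-sided) and adjusted by Benjamini-Hochberg over all genes tested. Fold changes of low genes are understated on this scale. GC content and length came from GENCODE release 44 canonical transcripts, and the trend of each sample was removed with natural splines (5 degrees of freedom each, 11385 genes). Promoter sequences and starts came from RefSeq. Steps were tested on simulated data. Genes given per sample were, in each compartment, the 3 highest and 3 lowest log2 fold changes, GARS, KARS, PQBP1, the scaffold genes, ATF4 and list genes at an adjusted p under 0.05, with AARS, IARS, LARS, TARS, AARS2, HARS, HARS2 and YARS2 added after their values were seen. Members and lists were chosen with earlier results of these data known. Alternatives were other scalings, filters, pseudocounts, no trend, a replicate block, each sample left out and the GC correction, and, added after seeing the data, that correction without shNC replicate 1.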

Additional observations from a re-analysis of the deposited data

How the results depend on the processing

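Of 127 comparisons of 8 results with 16 alternatives, 100 stayed on the same side of the threshold, within 1.5 times the count reported or, for the medians, within the spread between replicates. The mitochondrial median nevertheless changed sign, from -0.036 to 0.018 with the GC and length correction and to 0.030 with that correction without shNC replicate 1. The PQBP1 log2 fold change was -2.085 to -1.964 with 1 sample left out and -2.04 with the replicate number as a block (limma adjusted p = 0.0686). Replicate numbers did not pair the samples: same-numbered samples deviated with r of -0.186, -0.138 and -0.011, and the block left 0 of all genes at a limma adjusted p under 0.05, with 968 higher and 872 lower by unadjusted p. By the count at an unadjusted p under 0.05, 4 cytosolic genes became 2 with median-of-ratios scaling, quantile normalization or no mean-variance trend, 1 with the block, and 1 to 5 with a sample left out. The 1 mitochondrial gene, which was higher, became 2 with each of those first 3 settings (1 higher, 1 lower) and 2, both higher, with the GC and length correction and with that correction without shNC replicate 1, then 0 with the block, and 1 to 3 with a sample left out, with 1 higher and 2 lower without shNC replicate 2. No mitochondrial gene was called at an adjusted p under 0.05 in any alternative, and 1 cytosolic gene, AARS, was called with the correction, with the correction without shNC replicate 1, and in 1 of the fits that left out a sample (0 to 1). The cytosolic median was 0.063 with quantile normalization, 0.054 with the correction without shNC replicate 1 and 0.057 to 0.108 with a sample left out. The mitochondrial median was 0.092 over genes of at least 10 FPKM, where only 3 mitochondrial genes remained, and -0.085 to 0.053 with a sample left out. The difference of the medians was -0.003 over genes of at least 10 FPKM, 0.023 with the correction without shNC replicate 1 and 0.004 to 0.189 with a sample left out. Among all 36 members, the direction turned in 8 with the correction (CARS2, FARS2, FARSB, PARS2, QARS, RARS, VARS and YARS2) and in 5 without shNC replicate 1 (FARS2, PARS2, QARS, TARS and YARS2). Among the 18 genes followed through every alternative, it turned for VARS with the correction (0.008) and for TARS without shNC replicate 1 (-0.041, in a range of -0.041 to 0.164 with a sample left out) and with the correction without it (-0.078), and the cause was not tested. Over all genes, 332 calls at an adjusted p under 0.05 became 190 with all genes above 0, 211 at a mean FPKM of at least 10, 887 with the correction, 703 with the correction without shNC replicate 1 and 30 to 466 with a sample left out. The protein comparison planned for the pairs was not run. Depth, and with it the error that counting alone gives, is unknown.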
